A study of Mus musculus with 51 samples.

Results

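H3K36me3, the trimethylation of lysine 36 of histone H3, was compared between the B6 and the CAST allele of the same embryos, in the extra-embryonic ectoderm (ExE) and in the epiblast. The comparison used 8 libraries of the 51 in the series. They came from reciprocal hybrids at embryonic day 6.5, C57BL6/Babr (B6) by CAST/EiJ (CAST), with the mother named first: 2 B6/CAST and 2 CAST/B6 libraries in each tissue. No embryo of these groups carried an engineered allele. Each library was made from a pool of 4 epiblasts or 8 ExE, an estimated 2500 cells, so the replicate was a pool of dissected embryos and not an animal. The reads had been assigned to an allele through sequence variants that separate the strains. A peak was called strain-specific when the same strain's allele carried more reads in both reciprocal crosses (edgeR quasi-likelihood test in each cross, adjusted p under 0.05 in both). By this rule 88 of 7980 informative autosomal peaks were strain-specific in ExE and 47 of 11076 in epiblast, 135 peaks in all. A peak was informative if either allele had at least 20 reads in a wild-type library.

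A further 4 H3K36me3 libraries, 2 in each tissue, served as a comparison. They were from matDKO/CAST embryos, whose mothers were of mixed B6/129 background, homozygous for floxed Dnmt3a and floxed Dnmt3b and positive for Zp3-cre. Zp3 drives Cre in growing oocytes, so that the oocyte, and not the embryo, lacks both DNA methyltransferases. All sires of this group were CAST. The wild-type H3K4me3 and H3K27me3 libraries of the same tissues were used for the other marks.

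H3K36me3 is laid down along gene bodies by SETD2, a methyltransferase that travels with elongating RNA polymerase II, and it marks the body of transcribed genes. H3K4me3 marks active and poised start sites, and H3K27me3, deposited by Polycomb repressive complex 2, covers silent genes. In a hybrid embryo both alleles share the same cell, so a difference that follows the strain through both directions of the cross is separated from one that follows the parent, as in imprinting. The alleles of a nucleus also share all diffusible factors.

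The wild-type libraries held 734539 to 2109182 allelic reads in autosomal peaks, and the B6 allele took 51.0 to 51.4% of them in every library. The first B6/CAST epiblast library was the shallowest, at 734539 reads, against 1591651 to 1712555 in the other 3. Over gene bodies, 12 of 12 ExE markers had more H3K36me3 in ExE, and 6 of 10 epiblast markers had more in epiblast. Markers of visceral endoderm, which lies around both tissues, were higher in ExE for 10 of 10 genes, with a mean of 1.16 to 1.71 RPKM (reads scaled to length and depth) in the 4 ExE libraries and 0.531 to 0.656 in the 4 epiblast libraries. The mean of 8 markers of maternal decidua, which carries only the mother's alleles, was 0.309 and 0.385 RPKM in the B6/CAST and 0.615 and 0.601 in the CAST/B6 libraries of ExE, and 0.415 and 0.388 against 0.512 and 0.541 in epiblast. Both CAST/B6 libraries lay above both B6/CAST libraries for 7 of the 8 genes in ExE, and in epiblast for 2, Bmp2 and Vim. In ExE the other lists leaned the other way. Both B6/CAST libraries lay above both CAST/B6 libraries for 6 of 12 ExE, 5 of 10 epiblast and 5 of 10 visceral endoderm markers. The reverse held for 1, 0 and 1. In epiblast CAST/B6 lay above for 4 genes of each of these lists, and below for 2, 2 and 0. The median peak had 1.20 and 1.10 RPKM in the B6/CAST and 0.993 and 1.02 in the CAST/B6 libraries of ExE. The part of decidua or visceral endoderm cells in the strain differences was not tested. In pools of tissue, fewer cells carrying the mark on an allele and less of the mark per cell cannot be told apart.

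Start sites of 4 genes that were strain-specific in both tissues are shown first, because the H3K4me3 results below refer to them. Each is the 250 bases before the start site from RefSeq (GRCm38.p6), 5′ to 3′ on the gene's strand, with CpG dinucleotides in capitals. They are the B6 reference and carry no CAST variant.
Uggt2, chr14:119099435-119099684, minus strand: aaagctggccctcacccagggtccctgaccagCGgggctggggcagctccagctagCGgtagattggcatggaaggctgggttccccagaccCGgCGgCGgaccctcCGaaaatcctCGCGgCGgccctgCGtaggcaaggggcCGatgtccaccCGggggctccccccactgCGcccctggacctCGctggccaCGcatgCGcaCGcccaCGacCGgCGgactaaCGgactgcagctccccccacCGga
Fam185a, chr5:21424653-21424902, plus strand: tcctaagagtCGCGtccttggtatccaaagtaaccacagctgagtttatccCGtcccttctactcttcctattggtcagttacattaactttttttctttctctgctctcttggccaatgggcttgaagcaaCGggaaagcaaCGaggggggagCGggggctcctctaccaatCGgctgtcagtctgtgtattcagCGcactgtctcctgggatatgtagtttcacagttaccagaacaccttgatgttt
Cwc22, chr2:77946357-77946606, minus strand: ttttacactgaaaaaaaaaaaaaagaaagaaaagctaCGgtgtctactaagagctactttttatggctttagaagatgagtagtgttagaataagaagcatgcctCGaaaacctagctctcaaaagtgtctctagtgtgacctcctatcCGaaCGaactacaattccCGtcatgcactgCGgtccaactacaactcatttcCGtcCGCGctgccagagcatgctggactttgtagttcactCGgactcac
Wdr75, chr1:45794916-45795165, plus strand: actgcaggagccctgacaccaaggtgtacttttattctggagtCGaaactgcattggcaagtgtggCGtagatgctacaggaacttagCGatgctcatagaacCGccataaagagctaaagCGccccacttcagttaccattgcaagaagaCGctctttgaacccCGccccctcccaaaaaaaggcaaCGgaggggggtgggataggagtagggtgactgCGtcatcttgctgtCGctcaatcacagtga
Uggt2 held 22 CpGs in this window, Cwc22 and Wdr75 10 each and Fam185a 8. As many CpGs as in Uggt2 were found in 14.8% of the 32851 RefSeq windows of this length, as many as in Cwc22 in 37.8% and as many as in Fam185a in 43%. Of the 80 protein-coding genes with a strain-specific peak, 62 had such a sequence, with a median of 15.5 CpGs. The median was 18 over the 5772 protein-coding genes with an informative peak and such a sequence, and 6 over all windows.

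The strain-specific peaks of ExE were split evenly, with 44 B6-higher and 44 CAST-higher peaks. Together they were 1.1% of the peaks tested, and each direction was 0.551%. In epiblast 20 were B6-higher (0.181%) and 27 CAST-higher (0.244%), or 0.424% together. Taken alone, the B6/CAST cross called 2.93% of ExE peaks B6-higher and 2.76% CAST-higher, and the CAST/B6 cross 1.22% and 1.02%. In epiblast the B6/CAST cross, with the shallow library, called 0.28% and 0.334%, and the CAST/B6 cross 1.76% and 1.38%. At an unadjusted p under 0.05 in both crosses, 4.76% of ExE and 3.16% of epiblast peaks had the same strain higher. By the same rule, 20 peaks in ExE (0.251%) and 7 in epiblast (0.0632%) followed the parent and not the strain; these held known imprinted genes such as Sfmbt2, Grb10 and Kcnq1. Every strain-specific peak lay on the called side of its library's own B6 share in all 4 libraries, which the rule makes likely, whereas 25.9% of all informative ExE peaks and 23.4% of epiblast peaks had all 4 libraries on the same side. The B6-higher peaks of ExE had a median log2 ratio of B6 to CAST of 1.00, from 0.30 to 2.34. The size of the ratio at CAST-higher peaks had a median of 1.14 and ran from 0.30 to 4.98. In epiblast the medians were 1.20 and 1.03. The median size over all informative peaks was 0.13 in ExE and 0.16 in epiblast.

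**Figure D1:**
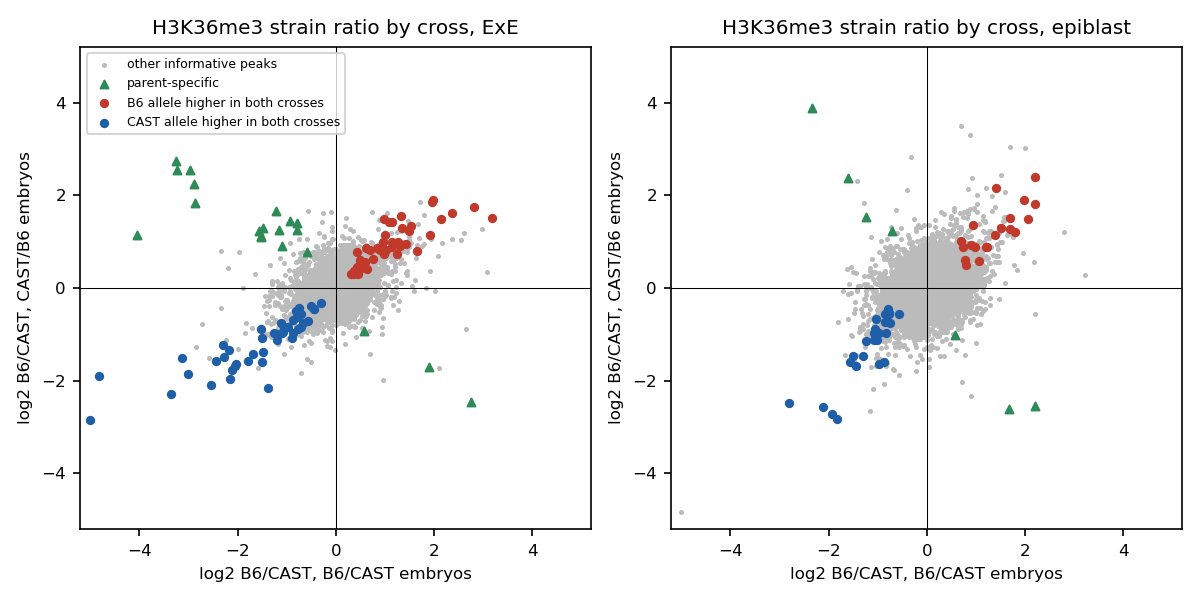
Log2 ratio of B6 to CAST H3K36me3 reads in B6/CAST embryos (x axis) and in CAST/B6 embryos (y axis) for every informative peak of ExE and epiblast, with ratios beyond 5 drawn at 5. The 88 and 47 strain-specific peaks lie in the lower left and upper right, and the 20 and 7 parent-specific peaks in the other corners.

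A fit over both crosses, with terms for cross, parent and strain, gave each peak a single ratio and error. It called 656 peaks in ExE (8.22%), 349 higher on B6 and 307 higher on CAST, and 493 in epiblast (4.45%), 273 and 220. The number of calls in both crosses depended on the tool: DESeq2 gave 11 strain-specific peaks in ExE and 1 in epiblast. Leaving out 1 library left 24 to 69 in ExE and 15 to 24 in epiblast, and treating each library as a block left 89 and 25. Just inside the threshold in ExE lay Rev3l (larger adjusted p of the crosses 0.0486) and Prom1 (0.0443), and just outside Tbc1d7 (0.0512) and Ddx4 (0.0531). In epiblast Golga3 (0.0497) and Chst12 (0.0464) were just inside, and a pair of peaks with no gene within 10000 bp (0.0509 and 0.0511) just outside.

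The strain-specific peaks belonged to 75 genes in ExE and 41 in epiblast, while 6 and 2 peaks had no gene within 10000 bp. Protein-coding genes named 73.9% of the ExE peaks (65 of 88), against 91.9% of all informative peaks, and lincRNA genes named 11.4% (10 of 88), against 2.03%. In epiblast 72.3% (34 of 47) were protein-coding, against 80.4%, and 4.26% (2 of 47) lincRNA, against 3.39%. Several genes held more than 1 strain-specific peak: in ExE 4 in Plxdc2, 3 in Rnf17 and 2 each in Rai14 and Gm7240, and in epiblast 2 each in Rab3gap1, Plce1 and Gm7240, among others. Peaks of the same gene share their transcripts and are not independent.

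Strain-specific peaks named for the same 13 genes were found in both tissues. The B6 allele was higher at 7 of them, Uggt2, Fam185a, Nipa2, Sec24d, Gm7240, Gm22983 and 4930430F08Rik, and the CAST allele at 6, among them Cwc22, Wdr75, Hjurp, Clec2h and Gm1976.

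Uggt2, a glucosyltransferase that senses misfolded glycoproteins in the endoplasmic reticulum, had the smallest p of the B6-higher peaks of ExE. Its peak at chr14:118939000-119098000, with 71% of its length in the gene, gave the B6 allele 66.5% and 66.1% of reads in B6/CAST embryos, and 64.9% and 65.2% in CAST/B6 embryos. The log2 ratio was 0.87 ± 0.06 (SE) and the larger adjusted p of the crosses 4.09e-18. In epiblast, over chr14:119009500-119108500, the shares were 64.5%, 61.7%, 65.8% and 70%, with a ratio of 0.85 ± 0.09. All 8 libraries thus put the B6 allele above the 51.0 to 51.4% it held over all peaks.

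Fam185a had B6 shares of 67.6%, 67.2%, 63.4% and 63.9% in ExE and 68%, 60.8%, 65.9% and 66.4% in epiblast, in the order B6/CAST 1 and 2, then CAST/B6 1 and 2. Its log2 ratios were 0.86 ± 0.09 and 0.81 ± 0.10. Nipa2, a magnesium transporter, stood higher, with 67.4 to 77.5% B6 reads in ExE and 70.7 to 84.2% in epiblast, for log2 ratios of 1.32 ± 0.16 and 1.60 ± 0.22. Sec24d, which picks cargo for COPII vesicles, was the weakest of the 7, at 54.2 to 59.6% in ExE and 60.7 to 72.6% in epiblast (0.38 ± 0.06 and 0.69 ± 0.13). The ranges of Sec24d in the tissues did not overlap, but its peak spanned 117 kb in ExE and 35 kb in epiblast, and the test of the tissue difference on reads summed per gene did not call it (-0.21 ± 0.13, adjusted p 0.665, edgeR). The pseudogene Gm7240, the snRNA-adjacent peak at Gm22983 and 4930430F08Rik had fewer reads (126 to 245 per peak) and B6 shares of 62.9 to 92.3% in ExE and 66.7 to 88% in epiblast.

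Among the CAST-higher genes, Wdr75, a nucleolar protein of ribosome biogenesis, gave the B6 allele 32.9%, 37.6%, 36.2% and 37.9% of reads in ExE and 37.9%, 36.9%, 34.9% and 35% in epiblast. The log2 ratios were -0.90 ± 0.07 and -0.90 ± 0.09. Cwc22, a splicing factor that loads the exon junction complex, had 38.1 to 40.1% in ExE and 35.2 to 39.4% in epiblast (-0.72 ± 0.06 and -0.80 ± 0.07). In every library of both genes the CAST allele held the larger share.

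Hjurp, the chaperone of the centromeric histone CENP-A, had the lowest ratio of the 6 genes in both tissues, with 12.3 to 26.7% in ExE and 9.26 to 18.8% in epiblast (-2.32 ± 0.23 and -2.65 ± 0.25). Clec2h, a C-type lectin, had 15.3 to 32.1% and 20.4 to 41%, and Gm1976 had 12.4 to 26.5% and 37.6 to 45.4%. The tissues overlapped at Clec2h and not at Gm1976, whose peak spanned 25 kb in ExE and 53.5 kb in epiblast. Summed per gene, the tissue difference of Gm1976 was not called (-0.17 ± 0.16, adjusted p 0.803, edgeR).

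**Figure D2:**
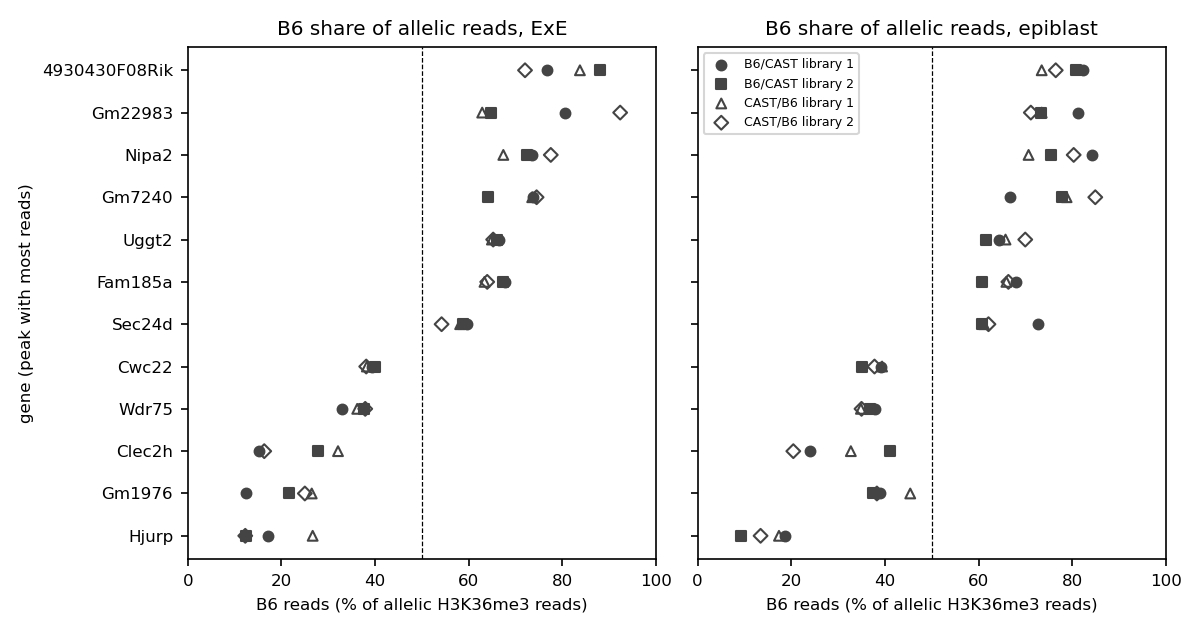
B6 share of allelic H3K36me3 reads (%, x axis) in each of the 4 wild-type libraries of ExE and of epiblast, for 12 of the 13 genes with a strain-specific peak in both tissues (the peak with the most reads of each). Filled symbols are B6/CAST and open symbols CAST/B6 libraries; the dashed line is 50%.

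Among the other high-ranking peaks of ExE, the B6 allele was higher at Dsg2, a desmosomal cadherin (63.2 to 67.3% B6, 0.85 ± 0.08). Its epiblast peak was not called in both crosses but leaned to B6 in all 4 libraries, with a ratio of 0.61 ± 0.11. Rai14, an actin-binding protein, had 64.1 to 69.4% in ExE (0.91 ± 0.10). The overlapping epiblast peak, of greater extent, had a ratio of 0.06 ± 0.08. Summed per gene, the tissue difference of Rai14 was called (0.43 ± 0.10, adjusted p 0.0041, edgeR). Ppp4r3b, a subunit of protein phosphatase 4, was at 58 to 61.6% over a peak of 119 kb that covers its neighbours too. In epiblast this segment was divided. The peak at chr11:29131500-29170500, named for the neighbour Pnpt1, the mitochondrial polynucleotide phosphorylase, held 66 to 67.1% B6 reads (0.91 ± 0.10) and was strain-specific. The peak at chr11:29175000-29234500, named for Ppp4r3b, was not called (0.12 ± 0.11, adjusted p 0.666 in the edgeR fit over both crosses). The largest ratios of the B6-higher ExE peaks were at a peak on chromosome 10 with no gene within 10000 bp (73.7 to 93.5%, 2.34 ± 0.18) and beside the lincRNA Platr13 (77.3 to 89.7%, 2.28 ± 0.24). In epiblast Rab3gap1, which regulates the small GTPases RAB3 and RAB18, had 76 to 87.2% B6 reads (2.00 ± 0.26), and Mup5, of the multicopy major urinary protein family, 58.2 to 71.3% (0.94 ± 0.15), in a peak of which 14.2% lies in the gene. A peak on chromosome 6 with no gene within 10000 bp had 76.9 to 86.4% (2.31 ± 0.33). Reads of near-identical Mup genes may not be told apart.

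With the CAST allele higher, Oas1a, an interferon-induced sensor of double-stranded RNA, had 8.47 to 19.3% B6 reads in ExE (-2.83 ± 0.24, larger adjusted p 5.48e-13) on 231 reads. It lies in a cluster of close paralogues, so its counts are uncertain. The lincRNA Gm26573, on the same stretch of chromosome 4 as Zfp981, had 28.3 to 37.8% B6 reads (-1.12 ± 0.10), with an input level (chromatin sequenced without antibody) 1.38 times that of the median peak. In epiblast AW146154 was at 9.68 to 28.9% (-2.32 ± 0.25), Gm38019 at 11.1 to 25% (-2.34 ± 0.30), Gm47929 at 32.1 to 37.7% and a peak without a gene on chromosome 1 at 26.7 to 31.2% (-1.38 ± 0.15). The input level was 1.56 times the median at AW146154, 1.92 at Gm38019, 1.35 at the peak without a gene and 1.17 at Gm47929.

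Deeply covered peaks reached the call with small ratios. Rin3, an activator of the endocytic GTPase RAB5, had 55.8 to 57.8% B6 reads on 3701 reads (0.30 ± 0.06), and Fgfr2, a receptor for fibroblast growth factors with a role in the trophoblast, had 45.2 to 46.4% on 2909 reads (-0.30 ± 0.06). In epiblast Cgnl1, a tight-junction protein, had 40.9 to 42.5% on 2164 reads (-0.56 ± 0.08). For each of the 3 genes this was the smallest ratio of its tissue and direction. All 4 libraries lay on the same side, as at every strain-specific peak.

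The gene groups below are set beside the shares over all peaks, 1.1% strain-specific in ExE and 0.424% in epiblast, and 8.22% and 4.45% called in the fit over both crosses. Of 20 genes for H3K36 methylation enzymes and readers with an informative ExE peak, 0 were strain-specific or called in the edgeR fit over both crosses (2 at an unadjusted p under 0.05, 0 by DESeq2), and in epiblast 0 of 19 (2 and 0). Of the transcription elongation factors 0 of 20 in ExE (3 at an unadjusted p under 0.05, 0 by DESeq2) and 0 of 23 in epiblast (2 and 0) were called by edgeR. Zinc finger genes had 2 of 180 strain-specific genes in ExE: Zfp606, B6-higher at 55.6 to 61.8%, and Zfp985, CAST-higher at 34.4 to 36.5% B6. The fit over both crosses called 10 zinc finger genes B6-higher and 7 CAST-higher in ExE, and 5 and 6 of 202 in epiblast, whereas DESeq2 called 3 in ExE and 0 in epiblast. Of 5 measured MHC and interferon-induced genes in ExE only Oas1a was called (3 at an unadjusted p under 0.05), and in epiblast 0 of 3 (edgeR; 0 at an unadjusted p under 0.05, 0 by DESeq2).

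Among 9 glutathione and detoxification enzymes in ExE the fit over both crosses called 3, and among 10 in epiblast 3, of which DESeq2 left 1 and 0. Glo1, the glyoxalase that clears methylglyoxal, was CAST-higher in both tissues without reaching the call in both crosses, with 24 to 40.7% B6 reads in ExE (-1.07 ± 0.19) and 28.9 to 35.9% in epiblast (-1.11 ± 0.23). Cyp20a1 was B6-higher in both (0.36 ± 0.08 and 0.32 ± 0.09). Ribosomal protein genes had 1 B6-higher and 1 CAST-higher of 18 in ExE (0 by DESeq2) and 0 of 29 in epiblast (edgeR; 2 at an unadjusted p under 0.05, 0 by DESeq2). Of the imprinted genes listed, 5 of 22 in ExE and 2 of 19 in epiblast were called for strain in this fit (3 and 0 by DESeq2), and 0 were strain-specific by the rule, also at an unadjusted p under 0.05 in both crosses. Predicted or cDNA-named genes held 17 strain-specific genes of 465 in ExE, 6 B6-higher and 11 CAST-higher, and 10 of 874 in epiblast, 4 and 6. Median ratios of these lists lay between -0.28 and 0.19, against 0.00 for all peaks.

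Where both tissues had an informative peak, the strain difference mostly had the same sign. Of the 44 B6-higher ExE peaks 36 overlapped an informative epiblast peak, of which 32 leaned to B6, and 21 were called so by the epiblast fit over both crosses, against 2.46% of all epiblast peaks. For the CAST-higher ExE peaks the counts were 25, 23 and 14, against 1.99%. In the other direction, all 18 B6-higher epiblast peaks with an ExE peak leaned to B6 in ExE and 15 were called (background 4.37%). All 18 CAST-higher peaks leaned to CAST and 12 were called (background 3.85%). No peak of either tissue was called in the opposite direction in the other, by edgeR. Each embryo had been separated into its epiblast and ExE, so the tissues may share embryos.

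Tissue differences were tested on reads summed per gene, over 4376 genes informative in both tissues. The difference of the strain ratio between ExE and epiblast was called for 49 genes (1.12%), 25 with the higher ratio of B6 to CAST in ExE and 24 in epiblast. Genes that overlap share reads: 9 of the 49 have the same reads as another in both tissues, which leaves 44 distinct sets of reads, and others share part of theirs. At an unadjusted p under 0.05 there were 449 (10.3%), and the strain ratio itself was called for 9.37% of these genes in ExE and 6.42% in epiblast. DESeq2 called 5 differences, and leaving out 1 library left 7 to 40. The list includes the imprinted genes Grb10, Kcnq1, Kcnq1ot1, Snrpn and Sgce.

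Plxdc2, a transmembrane protein of the plexin-domain family, had the smallest p. Summed over its peaks, the B6 allele held 29.1%, 27.4%, 34.6% and 32.2% of reads in the ExE libraries and 49.7%, 48.2%, 41% and 41.4% in the epiblast libraries. The groups did not overlap, and the difference of the log2 ratios was -0.87 ± 0.13 (adjusted p 2.56e-07). Rims2, a presynaptic scaffold gene, went the other way, with 75%, 71.6%, 82% and 66% B6 reads in ExE against 44.6%, 50.3%, 52.7% and 51.5% in epiblast (1.49 ± 0.22, adjusted p 3.30e-07). In ExE this rested on 254 reads in 2 peaks and in epiblast on 1103 reads in 9 peaks. Different stretches of the gene were thus summed. The strain-specific ExE peak of Rims2, with 222 reads, had an input level 0.667 times that of the median peak. Tspan12, a tetraspanin of the Norrin receptor complex, was at 61.2 to 70.5% in ExE and 46.8 to 53.5% in epiblast (0.92 ± 0.15).

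Jph1, a junctophilin, shares its peaks with Gm28376 and had 51.7 to 65% B6 reads in ExE and 45.3 to 48.5% in epiblast (0.72 ± 0.12). Zfp981 and 1700095A21Rik share the peak of Gm26573, at 28.3 to 37.8% in ExE and 42.3 to 50.2% in epiblast (-0.77 ± 0.15), with the raised input level given above.

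**Figure D3:**
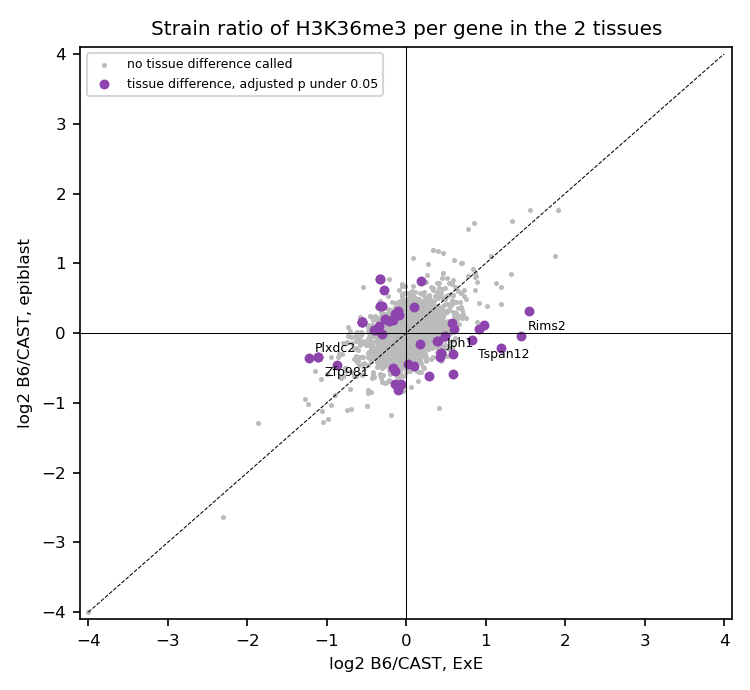
Log2 ratio of B6 to CAST H3K36me3 reads per gene in ExE (x axis) and epiblast (y axis) for 4376 genes, with ratios beyond 4 drawn at 4 and the dashed line marking equal ratios. The 49 genes in purple had a tissue difference; Plxdc2 lies at -1.23 in ExE and -0.36 in epiblast, and Rims2 at 1.45 and -0.04.

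The matDKO/CAST libraries took no part in choosing the peaks. Strain and parent cannot be told apart in them, since the maternal allele is always B6 or 129. They held 288720 to 1029936 allelic reads, and the maternal allele took 51.8 to 54.0%. In ExE 43 of 44 B6-higher peaks leaned to the maternal allele, with a median log2 ratio of 0.82, and 42 of 44 CAST-higher peaks to the CAST allele, with a median of -0.96. In epiblast 18 of 20 and 26 of 27 leaned the same way, with medians of 1.01 and -0.88. The median over all peaks was 0.00 in both tissues.

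Called in the same direction were 6 and 9 peaks in ExE, against 0.401% and 0.276% of all peaks, and 1 and 10 in epiblast, against 0.298% and 0.153%, or 26 in all. With each library as a block the count was 52. Uggt2 had maternal shares of 72.5% and 64.8% in ExE and Wdr75 of 42.6% and 35.6%. Without the epiblast library of replicate 3 the count was 15.

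The only call in the opposite direction was Gm48265 in ExE, a lincRNA on chromosome 13. The B6 allele held 56.5 to 65.7% of its reads in the wild-type libraries, and the maternal allele 5.63% and 3.7% in matDKO/CAST. Its input level was 3.37 times that of the median peak. Zfp985 also leaned the other way in these libraries, at 58.8% and 59.4% maternal reads, without passing the test.

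**Figure D4:**
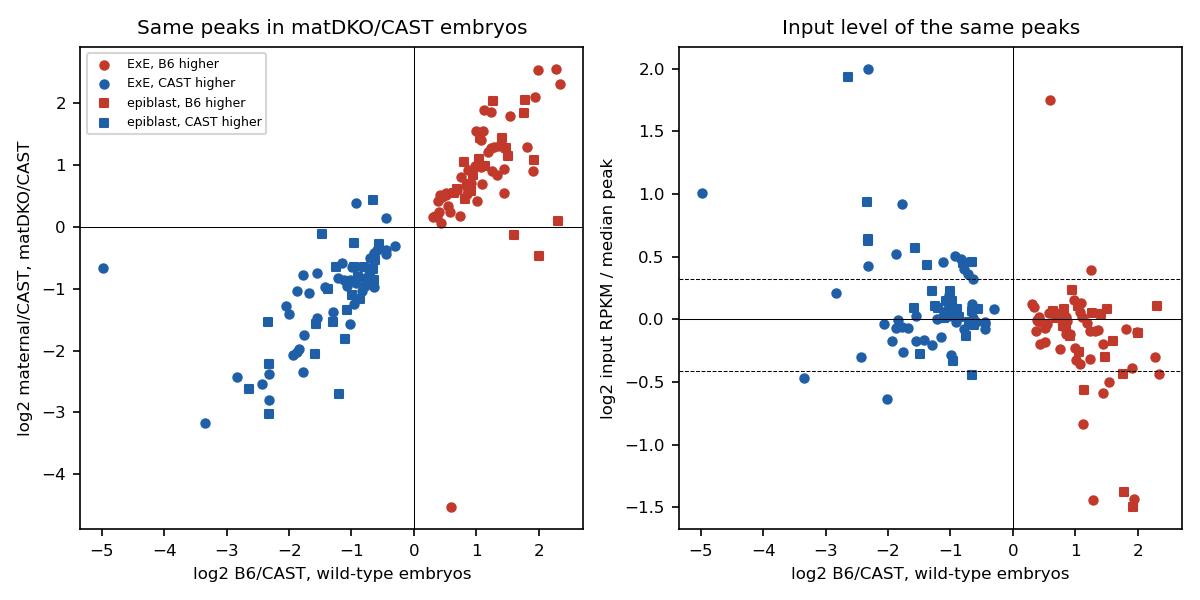
For the 135 strain-specific peaks, the log2 ratio of B6 to CAST in wild-type embryos (x axis of both panels) is set against the log2 ratio of maternal to CAST reads in matDKO/CAST embryos (left) and against the log2 input level relative to the median peak (right, with dashed lines 25% below and above the median). Most peaks keep their sign in matDKO/CAST, Gm48265 being far below, and 19 CAST-higher peaks lie above the upper dashed line.

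H3K4me3 at the start sites of the same genes was measured in other libraries of the same tissues and crosses. Each chromatin sample had been divided among the antibodies and the input, so the marks may share embryos. A peak within 2000 bp of a start site was found for 35 B6-higher and 33 CAST-higher ExE peaks, and the one with the most reads was used. Of these 17 and 19 were called in the same direction for H3K4me3 and 1 and 0 in the opposite. Of all 23211 H3K4me3 peaks of ExE, 9.65% and 9.34% were called B6-higher and CAST-higher. That background holds every informative peak, at a start site or not and at any depth, so it is not a share of like peaks. Counted by gene, 15 of 32 and 16 of 30 moved with H3K36me3. In epiblast 2 of 14 and 8 of 19 peaks were called in the same direction, against 3.51% and 2.58%, and 0 in the opposite by edgeR. The exception in ExE was Atp6v1e1, a subunit of the vacuolar proton pump, with an H3K36me3 ratio of 1.54 ± 0.23 and an H3K4me3 ratio of -0.33 ± 0.07.

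At Fam185a the H3K4me3 peak of ExE, which covers the start site printed above, gave the B6 allele 63.2%, 60.4%, 55.5% and 58.5% of reads (0.49 ± 0.08, adjusted p 7.46e-06). In epiblast the ratio was 0.50 ± 0.16 and missed the threshold (adjusted p 0.0609). At Cwc22 the peak over the printed start site held 38 to 38.6% B6 reads in ExE (-0.75 ± 0.06) and 36.8 to 40.2% in epiblast (-0.70 ± 0.13), close to the shares of H3K36me3. At Wdr75 the peak over the printed start site held 51.9 to 53.6% B6 reads in ExE (0.09 ± 0.07, adjusted p 0.376) and 49.9 to 53.7% in epiblast (0.03 ± 0.13, adjusted p 0.97), while the gene body leaned to CAST in all 8 libraries. Uggt2 was called B6-higher in both tissues, but at different starts: in ExE the peak with the most reads was chr14:119005000-119009000 (0.55 ± 0.10), and in epiblast chr14:119097500-119104000, over the printed start (0.61 ± 0.15).

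Larger H3K4me3 differences were found at genes chosen here after their values were seen. Pid1, an adaptor of lipoprotein receptors, had 75 to 91.2% B6 reads of H3K4me3 in ExE (2.25 ± 0.30), beside 67.3 to 79.5% of H3K36me3. Slc37a1, a glucose-phosphate transporter, had 22.9 to 26.4% of H3K4me3 (-1.67 ± 0.07), beside 38.8 to 41.7% of H3K36me3. Rnf17, a Tudor-domain protein of the germ line with 3 B6-higher peaks, had an H3K4me3 ratio of 1.35 ± 0.24.

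H3K27me3 was looked up at the peak or at a start site of its gene, again in the H3K27me3 peak with the most reads. In ExE 22 B6-higher and 22 CAST-higher peaks had an H3K27me3 peak. It was called in the opposite direction to H3K36me3 at 8 and 9 of them, and in the same direction at 4 and 4, while 11.8% and 11.5% of all 18592 H3K27me3 peaks of ExE were called CAST-higher and B6-higher. Counted by gene, 8 of 20 B6-higher genes were opposite and 2 the same, and 5 of 18 CAST-higher genes were opposite and 4 the same, Plxdc2 supplying 4 of the 9 peaks. In epiblast, where only 2 and 8 peaks had an H3K27me3 peak, 1 and 2 were opposite and 0 and 3 the same (edgeR), against 3.52% and 3.68% CAST-higher and B6-higher in all.

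At Uggt2 the B6 allele held 22.5%, 19.8%, 18.3% and 23.2% of H3K27me3 reads in ExE (log2 ratio -1.99), against 64.9 to 66.5% of H3K36me3. In epiblast its H3K27me3 share was 3.23 to 20% (-2.65). At Plxdc2 the order was turned round, with 81.8 to 92.3% B6 reads of H3K27me3 (2.74), 27.4 to 34% of H3K4me3 (-1.21 ± 0.08) and 27.4 to 34.6% of H3K36me3 over the gene in ExE. Rims2 had 28.9 to 36.9% B6 reads of H3K27me3 (-1.23) and Sec24d 26.7 to 46% (-0.97), both B6-higher for H3K36me3. Plce1, a phospholipase with 2 CAST-higher epiblast peaks, chosen after its values were seen, had 58.3 to 72.9% B6 reads of H3K27me3 (0.76) and 34.9 to 36.7% of H3K4me3 (-0.89 ± 0.14). The H3K4me3 of Sec24d was not called (0.09 ± 0.07). These genes are examples of opposite calls. Rnf17 in ExE had all 3 marks higher on B6, with 52.6 to 59.2% B6 reads of H3K27me3 (0.28 ± 0.06), and Cwc22, Hjurp and Slc37a1 had all 3 higher on CAST.

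**Figure D5:**
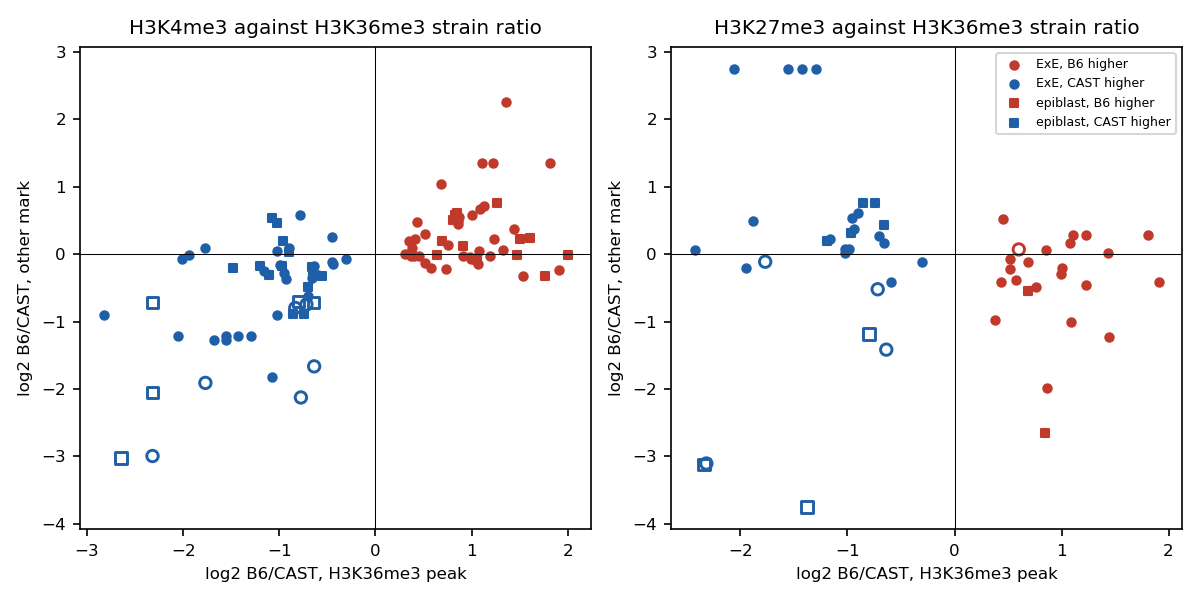
Log2 ratio of B6 to CAST for H3K36me3 at the strain-specific peaks (x axis) against that of H3K4me3 at a start site of the gene (left) and H3K27me3 at the peak or start site (right); rings mark peaks with an input level over 25% above the median peak. H3K4me3 points fall mostly in the lower left and upper right, and for H3K27me3 the 4 points near 2.7 are the peaks of Plxdc2 and those below -3 are ringed.

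The input of these peaks, chromatin sequenced without antibody, was not separated by allele, and its level differed from that of most peaks at some of them. In ExE 11 of 44 CAST-higher peaks had an input level over 25% above that of the median informative peak, as did 2 of 44 B6-higher peaks and 0.451% of all. In epiblast the counts were 8 of 27 and 0 of 20, against 0.65%. Levels over 25% below it were found at 6 B6-higher and 2 CAST-higher peaks of ExE (2.13% of all) and at 4 and 1 of epiblast (5.21%).

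Hjurp was at 4.0 times the median in ExE and 3.81 in epiblast, Cwc22 at 1.28 and 1.36, and Gm7240 at 0.369 in ExE and 0.354 and 0.385 in epiblast. At Hjurp in ExE all marks had B6 shares of 8.16 to 26.7%, with log2 ratios of -2.32 for H3K36me3, -2.99 for H3K4me3 and -3.10 for H3K27me3. Of the 11 CAST-higher ExE peaks with the high input, 6 had an H3K4me3 peak, and all 6 were CAST-higher. Of these 11, 4 had an H3K27me3 peak, called CAST-higher at 3 (Cwc22, Hjurp and Slc37a1) and B6-higher at 0 by edgeR. Among the 31 with an input within 25% of the median, 26 had an H3K4me3 peak, called CAST-higher at 13. Of these 31, 18 had an H3K27me3 peak, called B6-higher at 9 and CAST-higher at 1. In epiblast, all 5 H3K4me3 and all 3 H3K27me3 peaks of the high-input CAST-higher group were called CAST-higher. Within the band, H3K4me3 was called CAST-higher at 3 of 13. H3K27me3 was called CAST-higher there at 0 and B6-higher at 2 of 4 (edgeR).

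Without the peaks outside this band, 67 strain-specific peaks were left in ExE, 36 B6-higher and 31 CAST-higher, and 34 in epiblast, 16 and 18. This restriction was chosen after the data were seen, and the part of the input level in the ratios was not tested.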

How the data were processed

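Allelic H3K36me3, H3K4me3 and H3K27me3 were measured by ultra-low-input ChIP-seq. The deposited counts are raw reads per peak and parental allele. The authors made them with Trim Galore and Bowtie2 2.3.2 on GRCm38 with strain variants masked, SNPsplit for the alleles and chromstaR for the peaks, which were merged over crosses. In 28.3% of ExE and 19.2% of epiblast H3K36me3 peaks, 33 of the 88 and 27 of the 47 strain-specific ones among them, the peak's name gives a shorter interval with the same start than the start and end columns. The columns were used for coordinates and gene names. Depth that covers no variant is lost, so a peak's precision follows its variants as well as its signal. The deposited RPKM values, in windows of 1 kb without regard to the allele, were used for markers and input levels. Reads of matDKO/CAST had also been assigned through 129 variants.

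Counts were tested in edgeR 4.0.16 (R 4.3.3) with TMM factors, quasi-likelihood F tests and Benjamini-Hochberg adjustment over all informative autosomal peaks, with at least 20 reads in an allele column. Pools are the replicates. The main fits held no term for the library, so the alleles of a pool entered as separate columns. Their p-values measure the spread of allele counts between pools. The pairing of the alleles within a pool enters only in the replicate block. Errors of ratios are SE from the fit over both crosses. The fits were tested on simulated data.

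Members, lists and tests were chosen with earlier results of these data known. In each tissue the text names the 8 peaks per direction with the smallest p, the 3 with the most reads, genes found in both tissues, members of the lists, and the 4 genes per direction with the smallest p for a tissue difference. Other genes are examples taken after their values were seen. Alternatives were DESeq2 1.42.0, a library block, other filters, scalings and thresholds, and leaving out each library. Peak lists per cross were not used, since they hold no value per allele. Some genes that this rule selects are not reported here.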

Additional observations from a re-analysis of the deposited data

Results flagged for a closer look

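The ratio of B6 to CAST H3K36me3 differed between ExE and epiblast for 49 genes in a test of the difference itself (edgeR, adjusted p under 0.05). On the log2 scale, ExE minus epiblast, the difference was 1.49 for Rims2, 0.917 for Tspan12, 0.718 for Jph1 and 0.718 for Gm28376, which share their peaks. It was -0.871 for Plxdc2, -0.772 for Zfp981 and -0.772 for 1700095A21Rik. Zfp981 and 1700095A21Rik share a peak with an input level 1.38 times that of the median peak in ExE. The strain-specific ExE peak of Rims2 had an input level 0.667 times that of the median peak. The calls of Zfp981 and 1700095A21Rik were lost without the B6/CAST epiblast library of replicate 2 (difference -0.633, adjusted p 0.15, edgeR) and with DESeq2 (-0.772, adjusted p 0.0657).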

How the results depend on the processing

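Of the alternatives, DESeq2 gave 11 strain-specific peaks in ExE, 1 in epiblast, 133 and 59 in the fits over both crosses and 5 tissue differences. An adjusted p of 0.01 gave 52, 25, 382 and 265, and keeping only peaks whose name carries the listed coordinates 53, 14, 338 and 311. Sums per gene gave 24 in epiblast. Assigning peaks to genes by any overlap gave 236 tissue differences, 164 with the higher ratio of B6 to CAST in ExE and 72 in epiblast. Leaving out 1 library gave 24 (without CAST/B6 replicate 1) to 69 in ExE, 15 (without B6/CAST replicate 2) to 24 in epiblast, 333 to 453 and 185 to 382 in the fits over both crosses, 7 (without B6/CAST epiblast replicate 2) to 40 tissue differences, and 15 to 36 peaks called in the same direction in matDKO/CAST. When a cross was left with 1 library, that library was assumed to vary like the others.

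Both alleles of a library were read from the same pool of embryos, so each library is a true block. The replicate block gave 89 strain-specific peaks in ExE, 25 in epiblast, 795 and 599 in the fits over both crosses, 71 tissue differences and 52 peaks in matDKO/CAST. Counts for H3K4me3 (46) and H3K27me3 (20) stayed within 1.5 times under every alternative run.

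For the 73 named peaks and genes, 547 of 558 comparisons with an alternative kept direction and call, 11 lost the call, 6 of them by DESeq2 and 5 without 1 library, and 0 reversed. For peaks, the call compared here was that of the fit over both crosses, and for genes that of the tissue test. It was not the call in both crosses, for which DESeq2 gave 11 peaks in ExE and 1 in epiblast. Many named peaks had been chosen for a small p. Calls lost with DESeq2 included Zfp606 (0.437, adjusted p 0.0873), Sec24d in epiblast (0.723, 0.0516) and Gm22983 in ExE (1.47, 0.052). Without B6/CAST epiblast replicate 2 the ratio of Mup5 was 0.658. A single fit with a mean per cross and allele, chosen after the data were seen, gave 87 and 52. Peaks with few variant-covering reads limit what could be detected, and pools of embryos do not give the spread between animals.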
